A study of Mus musculus with 96 samples.

Results

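The 32 genes described here encode the machinery that copies DNA in S phase. They were taken by name as licensing, fork and nucleotide synthesis genes of G1/S, with earlier results of these data known, and all 32 were found by symbol among the 55536 gene IDs of the expression tables. RNA of mouse (C57BL/6) intestinal organoids was sequenced every 2 h, at 12 time points from 24 to 46 h after 1 h of 0.1 µM dexamethasone, a glucocorticoid pulse used to set the circadian clocks of cultured cells to a common phase. The 4 genotypes were APCmin/-;BMAL1-/- (Apc-min Bmal1-null), APCmin/-;BMAL1+/+ (Apc-min), APC+/+;BMAL1-/- (Bmal1-null) and APC+/+;BMAL1+/+ (control), with 22 libraries of each analysed here, 88 of the 96 labelled. The organoids of both Apc-min genotypes are labelled as adenoma organoids and were kept in EN medium, which lacks the R-spondin of the ENR medium used for the other genotypes. Their libraries also carry another run of library numbers. Genotype at Apc, medium and library series therefore cannot be told apart in any comparison across Apc genotypes. The labels give 2 organoid lines for each genotype and do not say that the libraries of a time point came from separate cultures, so p-values measure only the spread between these libraries.

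Before S phase, origins of replication are licensed: the origin recognition complex, CDC6 and CDT1 load the ring-shaped MCM helicase onto DNA. At the G1/S transition cyclin E kinases and the Dbf4-dependent kinase switch the helicase on with CDC45 and the GINS complex, and polymerases, the sliding clamp PCNA and its loader follow. Most of these genes are transcribed under E2F factors, which the retinoblastoma family holds back in resting cells. In the intestine they mark the cycling stem and progenitor cells of the crypt and are low in differentiated villus cells. APC restrains Wnt signalling, whose transcription factors are of the TCF family, and BMAL1 (gene symbol Arntl) is a core activator of the circadian clock that binds E-boxes.

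The promoters are shown because the members are known as shared targets of E2F factors. RefSeq promoter entries on GRCm38.p6 were matched to 26 of the 32 members. Within the 250 bases before the start site, 8 of these 26 genes held an E2F-type 8-base word (TTTCCCGC, TTTGGCGC, TTTCGCGC or TTTGCCGC, on either strand), against 2.16% of all 27025 genes with an entry. The 11 matches in these 8 genes are printed on the strand of the gene, 5′ to 3′, with the matched bases in capitals and flanks of up to 15 bases. The capitals in Mcm5 and the first capitals in Mcm6 are matches that overlap each other. Cdc6 lies at chr11:98907998-98908035 (+), Gins3 at chr8:95633503-95633540 (+), Mcm5 at chr8:75109341-75109382 (+) and Mcm6 at chr1:128359730-128359830 (−). Mcm7 lies at chr5:138172026-138172063 (−), Orc1 at chr4:108579412-108579449 (+), Pola1 at chrX:93632271-93632308 (−) and Rfc3 at chr5:151651209-151651233 (−).
Cdc6: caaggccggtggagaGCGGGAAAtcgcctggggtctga
Gins3: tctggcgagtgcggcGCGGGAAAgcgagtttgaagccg
Mcm5: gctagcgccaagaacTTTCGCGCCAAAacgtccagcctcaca
Mcm6: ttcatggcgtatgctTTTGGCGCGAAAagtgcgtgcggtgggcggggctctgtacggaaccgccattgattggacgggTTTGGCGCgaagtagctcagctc
Mcm7: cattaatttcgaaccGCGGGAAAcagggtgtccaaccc
Orc1: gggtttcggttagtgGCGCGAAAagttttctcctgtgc
Pola1: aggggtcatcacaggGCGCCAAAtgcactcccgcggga
Rfc3: agtgacgtcgcacgcTTTCGCGCtc
In the same windows CCAAT, the word bound by NF-Y, stood in 17 of the 26 genes and in 37.49% of all genes. The E-box CACGTG stood in 1 of the 26, Tyms, and in 6.86% of all genes. The TCF words CTTTGAT and CTTTGAA were found in 0 of the 26 and in 8.63% of all genes. A match is a description of the letters and not of binding.

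Uniquely mapped reads ran from 28.8 M to 48.1 M per library (median 35.4 M). All 9 epithelial markers averaged at least 1 TPM (the share of transcripts, corrected for gene length) in every genotype. In Apc-min Bmal1-null and Apc-min organoids 6 of 12 enterocyte markers and 9 of 10 enteroendocrine markers averaged under 1 TPM, against 0 of either list in Bmal1-null and control organoids. Arntl, the gene targeted in the Bmal1-null genotypes, had 6.31, 8.72 and 10.9 TPM (lowest, median, highest) in Bmal1-null and 11.3, 14.5 and 20.7 TPM in control organoids, with no overlap. It had 2.0, 4.47 and 14.7 TPM in Apc-min Bmal1-null and 4.09, 11.3 and 17.3 TPM in Apc-min organoids, which overlap. At 28 h, replicate 1 of those labelled Apc-min Bmal1-null had the 14.7 TPM, while the other libraries of its genotype reached at most 6.22 TPM. At the same time, replicate 1 of those labelled Apc-min had the 4.09 TPM, against at least 7.20 TPM in the other libraries of its genotype. Both libraries go against their Bmal1 labels. They are called the doubted libraries, and the level comparisons over all libraries that include them are also given without them.

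Where a time point of a genotype had 2 libraries, their sequencing numbers split them into a lower-numbered and a higher-numbered one. This split was made after the values were seen, and whether it follows the 2 organoid lines is not given by the labels. Xist ran from 41.8 to 88.4 TPM in the higher-numbered Apc-min Bmal1-null libraries and from 39.6 to 84.9 TPM in the higher-numbered Bmal1-null ones, and was at most 0.25 TPM in every other library. Within the higher-numbered libraries every comparison of Bmal1 genotype thus sets libraries with Xist against libraries nearly without it. Bmal1 genotype and whatever goes with Xist cannot be told apart there, nor in the interaction within that set. Of the members, Pola1 lies on chromosome X. The Apc-min Bmal1-null, Apc-min, Bmal1-null and control genotypes had 12, 10, 11 and 11 lower-numbered and 10, 12, 11 and 11 higher-numbered libraries. The level comparisons between genotypes are also given within these library sets.

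All 32 genes were well expressed in every genotype. On the length-corrected TPM scale, the order in Apc-min Bmal1-null organoids was led by Pcna with a mean of 317 TPM, Rrm2 with 237 TPM, Mcm5 with 226 TPM and Mcm3 with 221 TPM, and ended with Gins3 at 8.37 TPM. In control organoids Pcna led with 209 TPM, then Tk1 with 109.6 TPM, Mcm7 with 107 TPM and Mcm5 with 104 TPM, whose ranges over libraries overlap, and Gins3 was again last with 4.81 TPM. The 6 subunits of the MCM ring, Mcm2 to Mcm7, were also summed, and how well they stand for the whole list was not tested. Their summed level was 668, 1097 and 1184 TPM (lowest, median, highest) in Apc-min Bmal1-null, 310, 909 and 1128 TPM in Apc-min, 391, 473 and 567 TPM in Bmal1-null, and 381, 504 and 553 TPM in control organoids. Every Apc-min Bmal1-null library thus lay above every library of both genotypes with intact Apc, while Apc-min libraries spread from below the lowest control library to nearly the highest Apc-min Bmal1-null one. The 668 TPM was the doubted library, which lay below the other lower-numbered libraries of its label for all 32 members. It gave the lowest values of Cdc6, Orc6, Mcm3, Gins1 and Ccne2 below. The doubted Apc-min library lay above the others of its set for 31 members. The coefficient of variation of single members, without the doubted libraries, had a median of 10.2% in Apc-min Bmal1-null, 31.8% in Apc-min, 10.4% in Bmal1-null and 9.48% in control organoids. Within the lower-numbered and the higher-numbered Apc-min libraries it was 17.2% and 9.76%.

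**Figure D1:**
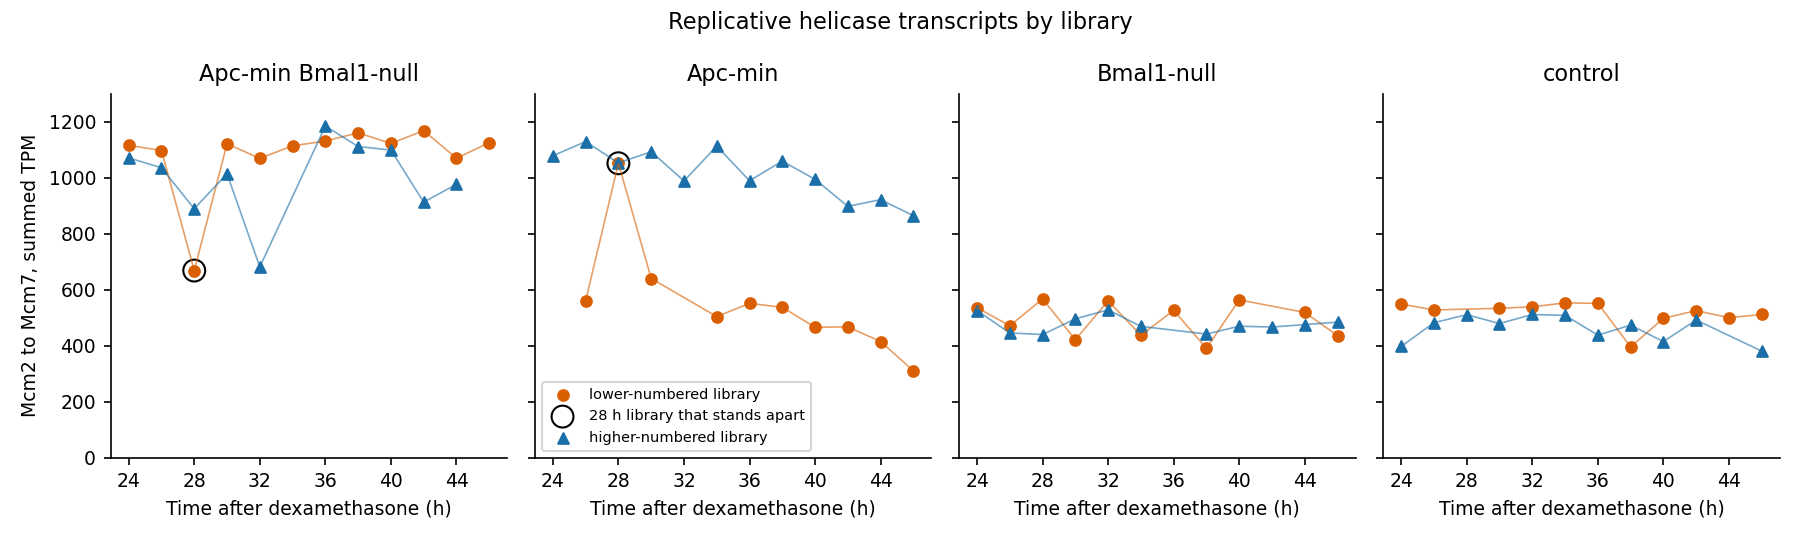
Summed TPM of Mcm2 to Mcm7 (vertical axis) in each library by hours after dexamethasone (horizontal axis), one panel per genotype, with lower-numbered and higher-numbered libraries marked apart and the doubted libraries ringed. In the Apc-min panel the higher-numbered libraries lie between 864 and 1128 TPM and the lower-numbered ones between 310 and 640 TPM apart from the doubted library at 1051 TPM.

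The first question was what differs with Apc genotype where Bmal1 is absent. In Apc-min Bmal1-null organoids all 32 members were higher than in Bmal1-null organoids by limma on log2(TPM + 1), at an adjusted p under 0.05, where 45.7% of all 13404 genes tested were called higher. The median log2 difference of the members was 0.82, against 0.07 over all genes, and 11 members rose by at least 2-fold, against 11.6% of all genes. The libraries of the 2 genotypes did not overlap for 15 members, against 15.1% of all genes in this direction, and for 23 members without the doubted library, against 17.2%. All 32 were also called without it, against 45.2% of all genes. A difference in bulk RNA cannot tell more cycling cells from more of these transcripts per cell. The summed enterocyte markers ran from 74.7 to 561 TPM in Apc-min Bmal1-null and from 7711 to 11218 TPM in Bmal1-null organoids. The stem cell sum ran from 267 to 629 TPM in Apc-min Bmal1-null and from 775 to 1699 TPM in Bmal1-null organoids. Within that sum the stem cell genes went both ways. Olfm4 averaged 0.016 TPM in Apc-min Bmal1-null and 526 TPM in Bmal1-null organoids, Smoc2 28.8 and 212 TPM, Slc12a2 48.0 and 158 TPM, Lgr5 3.04 and 28.8 TPM and Sox9 30.0 and 37.2 TPM. Ascl2 averaged 88.4 TPM in Apc-min Bmal1-null and 49.5 TPM in Bmal1-null organoids, Axin2 130.1 and 109.1 TPM, Rnf43 76.5 and 43.3 TPM, Znrf3 8.86 and 5.52 TPM and Cd44 71.1 and 21.1 TPM. The part of these markers in the members' difference was not tested. The sum of 7 immune markers ran from 45.4 to 84.02 TPM in Apc-min Bmal1-null and from 13.1 to 17.7 TPM in Bmal1-null organoids. Of these, Cd14 averaged 48.2 TPM in Apc-min Bmal1-null organoids, while the pan-leukocyte gene Ptprc reached at most 0.13 TPM and the T cell gene Cd3e at most 0.11 TPM. The sum of 5 endothelial markers ran from 3.98 to 19.35 TPM in Apc-min Bmal1-null and from 0.10 to 0.68 TPM in Bmal1-null organoids. In Apc-min Bmal1-null organoids 3 of the 5 averaged under 1 TPM, with Kdr at most 0.01 TPM, and the others averaged at least 1 TPM. In Bmal1-null organoids all 5 averaged under 1 TPM.

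Licensing genes had a median log2 difference of 1.06. Cdc6, which helps load the MCM ring, had 20.8, 40.1 and 43.7 TPM in Apc-min Bmal1-null and 10.5, 13.4 and 14.85 TPM in Bmal1-null organoids (lowest, median, highest). The groups did not overlap, and the log2 difference was 1.47 ± 0.06 (SE, limma adjusted p = 5.73e-22), or 2.77-fold. Orc6, a subunit of the origin recognition complex, had 72.5, 94.97 and 106 TPM in Apc-min Bmal1-null and 30.7, 38.7 and 42.4 TPM in Bmal1-null organoids. It too was apart in every library, with a log2 difference of 1.31 ± 0.04 (limma adjusted p = 2.96e-26). Of the MCM ring, Mcm3 and Mcm4 differed most. Mcm3 had 125, 227 and 258 TPM in Apc-min Bmal1-null and 73.9, 83.4 and 91.8 TPM in Bmal1-null organoids, a log2 difference of 1.38 ± 0.05 (limma adjusted p = 1.01e-24). The estimate was 1.34 ± 0.06 for Mcm4, 1.09 ± 0.07 for Mcm5, 1.04 ± 0.06 for Mcm6, 0.91 ± 0.09 for Mcm2 and 0.76 ± 0.07 for Mcm7. Orc1, the largest subunit of the origin recognition complex, and Cdt1, the partner of CDC6 in loading, rose by 0.72 ± 0.07 and 0.68 ± 0.06.

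Helicase activation genes had a median of 0.80. The GINS subunits rose unequally, by 1.28 ± 0.05 for Gins1, 0.91 ± 0.04 for Gins2, 0.75 ± 0.03 for Gins4 and 0.65 ± 0.06 for Gins3. Gins1 had 26.7, 50.7 and 56.5 TPM in Apc-min Bmal1-null and 15.5, 19.9 and 25.1 TPM in Bmal1-null organoids, with no overlap (limma adjusted p = 4.99e-22). Mcm10, which joins the helicase to the polymerases, and Cdc45, the helicase partner of GINS, rose by 0.80 ± 0.06 and 0.79 ± 0.05. Polymerases, clamp and loader had the lowest median of the 5 role groups, 0.66. Prim1, the primase that makes RNA primers, had 39.5, 62.8 and 66.8 TPM in Apc-min Bmal1-null and 23.7, 30.7 and 35.05 TPM in Bmal1-null organoids, apart in every library, with a log2 difference of 0.98 ± 0.05 (limma adjusted p = 1.2e-18). Pcna rose by 0.57 ± 0.03, and Pold1, the catalytic subunit of polymerase delta, rose least of all members, by 0.17 ± 0.05 (limma adjusted p = 0.0021). Pold1 had 46.65, 71.8 and 88.1 TPM in Apc-min Bmal1-null and 52.1, 61.4 and 76.4 TPM in Bmal1-null organoids, which overlap widely. The 46.65 TPM was the doubted library, and the ranges also overlap without it. The other polymerase genes, Pola1 and Pole, the clamp loader subunits Rfc3, Rfc4 and Rfc5 and the single-strand binding subunit Rpa2 rose by 0.45 to 0.87.

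Nucleotide synthesis genes had a median of 0.96. Both subunits of ribonucleotide reductase, which makes deoxynucleotides, were apart in every library. Rrm2 had 146, 247 and 279 TPM in Apc-min Bmal1-null and 70.3, 88.7 and 109.7 TPM in Bmal1-null organoids, a log2 difference of 1.39 ± 0.06 (limma adjusted p = 1.44e-21). Rrm1 rose by 1.15 ± 0.04 and Tyms, thymidylate synthase, by 0.77 ± 0.04, while Tk1, thymidine kinase of the salvage route, rose by 0.34 ± 0.05 (limma adjusted p = 3.22e-08). The G1/S group had the highest median, 1.28. Ccne2, a cyclin E, had 17.5, 24.6 and 29.5 TPM in Apc-min Bmal1-null and 5.65, 9.04 and 11.3 TPM in Bmal1-null organoids, a log2 difference of 1.40 ± 0.08 (limma adjusted p = 6.46e-19). The other cyclin E gene, Ccne1, rose by 1.28 ± 0.04, and both cyclins E were apart in every library. The activator E2f1 rose by 0.53 ± 0.04. The increase held in each library set: 31 of 32 members, all but Pold1, were called within the lower-numbered libraries, against 45% of all genes, and 32 within the higher-numbered ones, against 36.8%. For 30 of the 32 the mean was higher in Apc-min Bmal1-null organoids at all 12 times. The share of all genes with this pattern was not counted, so the count only describes the members.

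**Figure D2:**
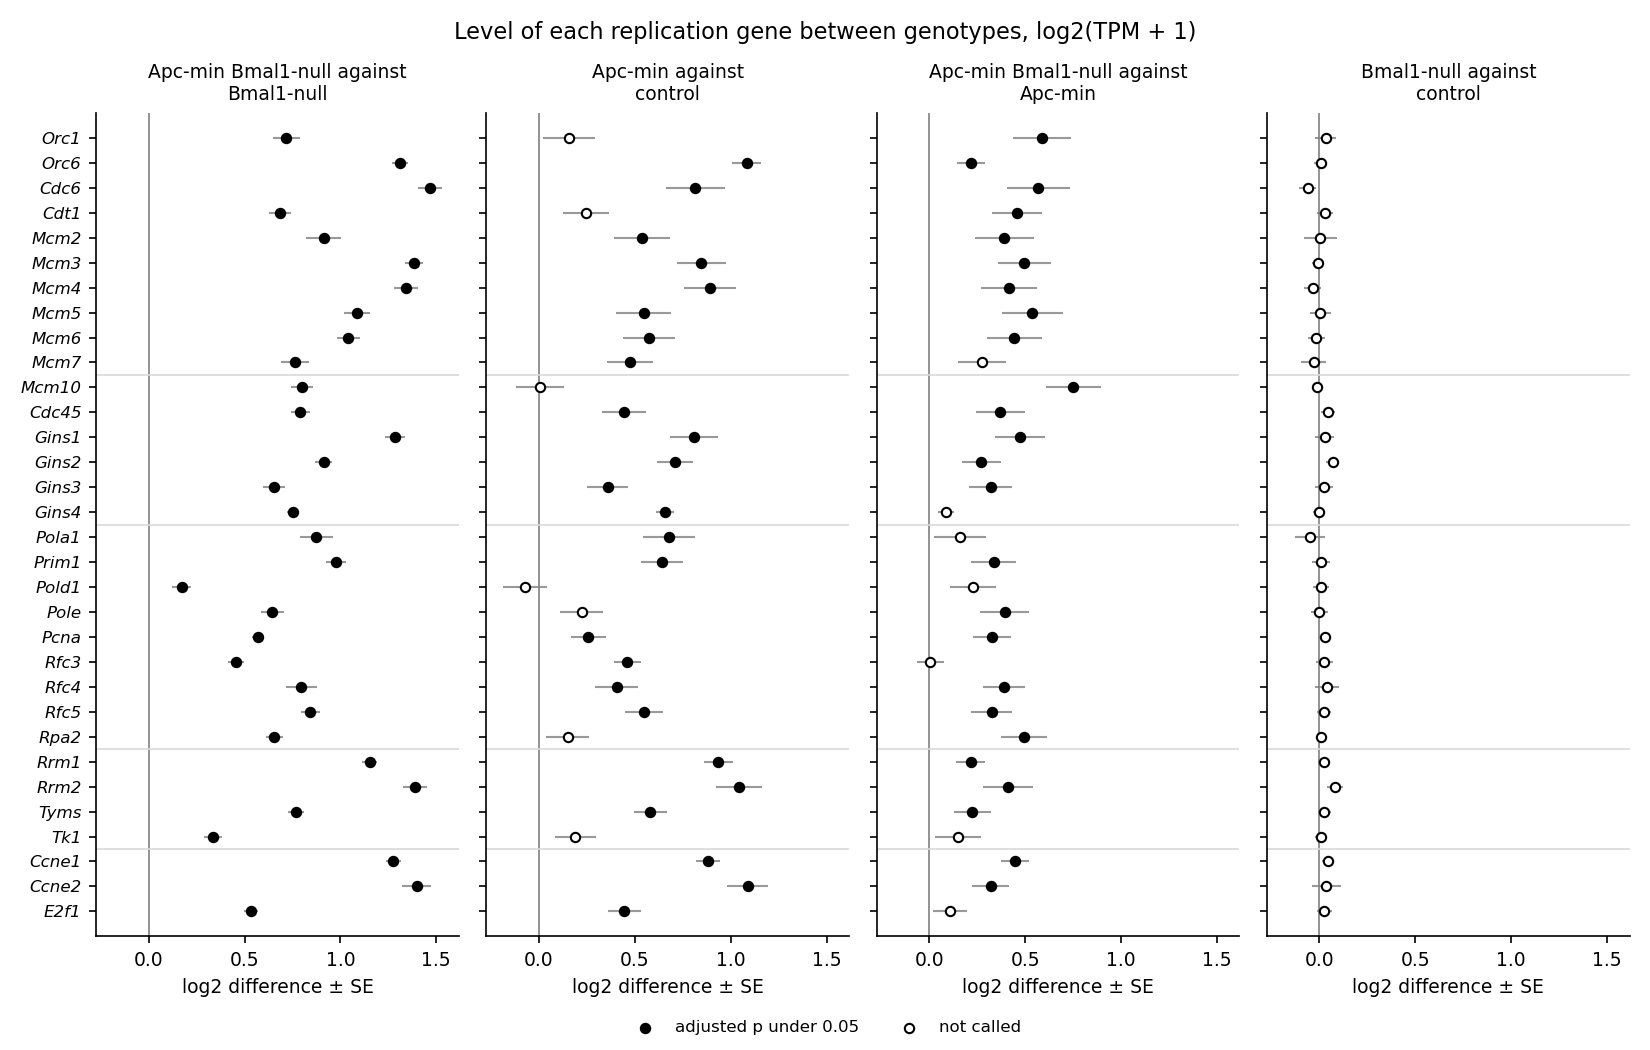
Log2 difference in level (horizontal axis) for each of the 32 members (vertical axis, ordered by role), with standard errors, in 4 comparisons, from left Apc-min Bmal1-null against Bmal1-null, Apc-min against control, Apc-min Bmal1-null against Apc-min, and Bmal1-null against control. Points lie between 0.17 and 1.47 in the first comparison and between −0.06 and 0.08 in the last.

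Where Bmal1 was intact, the same Apc comparison gave fewer calls and smaller differences. In Apc-min organoids 25 members were higher than in control organoids and 0 lower by limma (adjusted p under 0.05), where 50.5% of all 13663 genes were called higher and 31.1% lower. The median log2 difference was 0.55, against 0.17 over all genes. On a median-of-ratios scale, which centres all genes at 0.01, it was 0.38 with 23 members called. The share of all genes called on that scale is not given, so the 23 only describes the members. With each library's slope of level on gene length as a covariate the median was 0.29, against 0.01 over all genes. Without the doubted library 25 were called, against 50.6% of all genes. Only Ccne2 (1.09 ± 0.11), Orc6 (1.08 ± 0.08) and Rrm2 (1.04 ± 0.12) rose by at least 2-fold, which 12.1% of all genes did. Gins4, Orc6 and Rrm1 were the members whose libraries did not overlap, against 15.3% of all genes in this direction. Mcm3 had 70.4, 177 and 244 TPM in Apc-min and 72.1, 84.6 and 100.2 TPM in control organoids, a log2 difference of 0.85 ± 0.13 (limma adjusted p = 2.58e-07). Its lowest Apc-min library lay below every control library and its median far above them. Ccne1 rose by 0.88 ± 0.06, Rrm1 by 0.93 ± 0.08, Gins4 by 0.66 ± 0.05, Cdc6 by 0.82 ± 0.15, Prim1 by 0.64 ± 0.11 and E2f1 by 0.45 ± 0.09. The 7 members not called were Orc1 at 0.16, Cdt1 at 0.25, Mcm10 at 0.00 ± 0.13 (adjusted p = 0.981), Pold1 at −0.07 ± 0.11, Pole at 0.22, Rpa2 at 0.15 and Tk1 at 0.19.

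This comparison depended on the library set. Within the lower-numbered libraries 7 members were higher and 7 lower in Apc-min than in control organoids, against 39.3% and 28.3% of all genes, with a median of 0.03. Without the doubted library, whose time point has no lower-numbered control library, the counts were again 7 and 7, against 39.5% and 28.3%. There Mcm10 was at −0.65 ± 0.08, Orc1 at −0.61 ± 0.10 and Pold1 at −0.57 ± 0.08, while Orc6 was at 0.71 ± 0.08 and Rrm1 at 0.59 ± 0.08. Within the higher-numbered libraries all 32 members were higher in Apc-min organoids, against 53.4% of all genes, with a median of 0.92. The difference between the sets was itself called for all 32 members, against 38% of all genes, with a median of −0.92, lower-numbered minus higher-numbered. With the mean of each library set as the unit, 6 members were called. The share of all genes in that fit is not given, so the count only describes the members.

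The lower-numbered Apc-min libraries held less of every member than the higher-numbered ones. The Mcm2 to Mcm7 sum was 1014 ± 86.8 TPM in the higher-numbered libraries (SD, n = 12) and 550 ± 198 TPM in the lower-numbered ones (n = 10), or 495 ± 95.1 TPM without the doubted library (n = 9). All 32 members were higher in the higher-numbered libraries by limma, against 35.7% of all genes, with a median log2 difference of 0.79 against 0.07 over all genes. Without the doubted library all 32 were called too, against 39.1%, with a median of 0.87. The difference was 1.08 ± 0.13 for Cdc6, 1.02 ± 0.12 for Mcm5 and 0.26 ± 0.05, the smallest, for Gins4. At the 10 times with both libraries the higher-numbered one had the higher value at 9 or 10 times for each member, and at all 10 for 17 members. Such counts by time were made for the members alone, here and for the control libraries below. In Apc-min Bmal1-null organoids 0 members differed between sets by limma (0 at an unadjusted p under 0.05, against 2.06% of all genes adjusted and 16.5% unadjusted), with a median of −0.08, higher-numbered minus lower-numbered. Without the doubted library 0 were again called, against 4.06% of all genes higher and 1.67% lower, but 15 members had an unadjusted p under 0.05, against 20.4% of all genes. All 15 were lower in the higher-numbered libraries, and the median over the 32 was −0.14. In Bmal1-null organoids 0 members differed (1 unadjusted, against 0.502% and 4.8%). In control organoids 1 member, Pold1, was higher and 5 were lower in the higher-numbered libraries, against 5% and 19.4% of all genes. The median was −0.09 over the members and −0.12 over all genes, higher-numbered minus lower-numbered. On a median-of-ratios scale these medians were 0.04 and 5.5e-05. The counts by time that follow for the control libraries hold this shift of all genes too. At the 10 times with both control libraries the higher-numbered one had the higher value at 0 times for Ccne2, at 1 time for Orc1, Orc6, Cdc6, Mcm4, Mcm5, Mcm6, Mcm7, Cdc45 and Prim1, and at all 10 for Pold1. The number called in control organoids was 15 without either 38 h library, 1 without either library of 24 h or of 36 h, 2 without either of 40 h or of 46 h, and 3 without either of 26 h, of 32 h or of 42 h. Over all genes the number called moved too. It was 3072 of 12570 with every library, 7493 or 7495 without a 38 h library, and 1060 to 1846 without one of the others named. The lower-numbered 38 h control library had a slope of level on gene length of −0.24. The other lower-numbered control libraries ran from 0.28 to 0.57. The part of this slope in the counts was not tested.

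Other genes moved with the split of the Apc-min libraries. Krt20, a keratin of differentiated epithelium, averaged 18.4 TPM (14.01 to 22.4) in the higher-numbered and 158 TPM (21.7 to 190) in the lower-numbered Apc-min libraries, and the 21.7 TPM was the doubted library. The summed level of the 12 enterocyte markers was 100 to 189 TPM in the higher-numbered and 85.1 to 1002 TPM in the lower-numbered libraries, and Anpep, an aminopeptidase, and Krt20 made up most of it. The doubted library is left out of the following means. Anpep averaged 102 TPM in the higher-numbered and 547 TPM in the lower-numbered libraries, while the enterocyte gene Mgam averaged 7.85 and 1.44 TPM. Of the Paneth list Mmp7 averaged 1475 and 2499 TPM, of the tuft list Avil 30.5 and 111 TPM, and of the goblet list Fcgbp 27.7 and 145 TPM but Tff3 47.9 and 18.8 TPM. The defining genes of these cell types were near 0 in both sets, with 0.11 TPM in the higher-numbered and 0.39 TPM in the lower-numbered libraries for Muc2 of goblet cells, 0.21 and 0.080 TPM for Dclk1 of tuft cells, and 0.024 and 0.093 TPM for Defa17 of Paneth cells. Of the 10 stem cell markers, Lgr5 averaged 14.8 TPM in the higher-numbered and 6.79 TPM in the lower-numbered libraries, Smoc2 80.7 and 5.10 TPM and Ascl2 119.7 and 83.6 TPM, while Axin2 averaged 203 and 252 TPM, Rnf43 98.9 and 105.8 TPM and Znrf3 15.9 and 17.1 TPM. Cdkn1a, which encodes the cell cycle inhibitor p21, averaged 334 TPM in the higher-numbered and 519 TPM in all lower-numbered libraries. The part of these genes in the difference of the members was not tested.

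**Figure D3:**
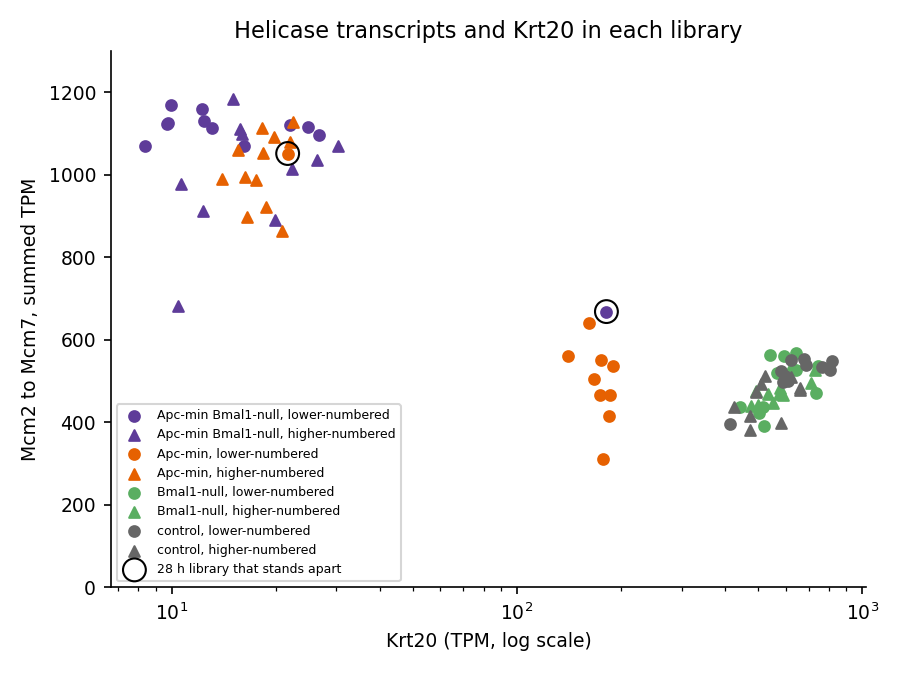
Summed TPM of Mcm2 to Mcm7 (vertical axis) against Krt20 TPM (horizontal axis, log scale) in each library, coloured by genotype, with library set by symbol and the doubted libraries ringed. The lower-numbered Apc-min libraries apart from the doubted one sit at 140.5 to 190 TPM of Krt20 and 310 to 640 TPM of the sum. Bmal1-null and control libraries sit at 414 to 816 TPM of Krt20.

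The effect of Bmal1 loss was next taken on each Apc background. Between Bmal1-null and control organoids 0 of the 32 members differed by limma (adjusted p under 0.05), where 3.56% of all 12654 genes were called. At an unadjusted p under 0.05 there was 1, Gins2 at 0.07 ± 0.03, against 10.6% of all genes. The estimates ran from −0.06 for Cdc6 to 0.08 for Rrm2, with a median of 0.01. Within the lower-numbered libraries 0 members were called either, against 1.77% of all genes higher and 3.71% lower, with a median of −0.03. There 5 had an unadjusted p under 0.05, against 24.2% of all genes, namely Pola1 at −0.21, Cdc6 at −0.16, Mcm4 at −0.13, Prim1 at −0.11 and Pold1 at 0.12. Within the higher-numbered libraries 0 were called, against 1.26% and 0.711% of all genes, and 1 unadjusted, Rrm2 at 0.14, against 7.91%, with a median of 0.04. The mean of the Mcm2 to Mcm7 sum was 485 ± 49.6 TPM in the 22 Bmal1-null libraries and 490 ± 52.6 TPM in the 22 control libraries (SD).

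On the Apc-min background 25 members were higher in Apc-min Bmal1-null than in Apc-min organoids and 0 lower by limma, where 24.6% of all 12885 genes were called higher and 35.7% lower. The median log2 difference was 0.35, against −0.04 over all genes, and 0 members reached 2-fold, against 1.92% of all genes. Mcm10 had 32.4, 69.7 and 75.7 TPM in Apc-min Bmal1-null and 16.3, 43.4 and 71.7 TPM in Apc-min organoids, a log2 difference of 0.75 ± 0.14 (limma adjusted p = 4.61e-05). The libraries of the 2 genotypes overlapped for every member, as they did in this direction for all genes (0% were apart). Without the doubted libraries they did not overlap for Mcm10 alone, against 1.95% of all genes. It then had at least 59.1 TPM in Apc-min Bmal1-null and at most 58.01 TPM in Apc-min organoids, with a log2 difference of 0.84. Orc1 rose by 0.59 ± 0.15, Cdc6 by 0.57 ± 0.17, Rpa2 by 0.49 ± 0.12, Ccne1 by 0.45 ± 0.07 and Rrm2 by 0.41 ± 0.13. Mcm7 at 0.27, Pold1 at 0.23, Pola1 at 0.16, Tk1 at 0.15, E2f1 at 0.11, Gins4 at 0.09 and Rfc3 at 0.01 were not called. Without the doubted libraries 27 members were called, against 26.7% of all genes.

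This comparison also depended on the library set. Within the lower-numbered libraries all 32 members were higher in Apc-min Bmal1-null organoids, against 34.5% of all genes, with a median of 0.80. Without the doubted libraries this median was 0.93. Within the higher-numbered libraries 3 members were higher (Mcm10 0.36 ± 0.05, Ccne1 0.26 ± 0.04 and Rpa2) and 4 lower (Pola1, Tk1 at −0.28 ± 0.07, E2f1 and Rfc3), against 14.2% and 35.3% of all genes, with a median of −0.04. Mcm10 and Ccne1 were thus among the members called higher in both sets. The difference between the sets was called for all 32 members, against 38.5% of all genes, with a median of 0.89. With the mean of each library set as the unit, 0 members were called by limma and 2 had an unadjusted p under 0.05. Here too the share of all genes is not given, and the counts only describe the members.

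The interaction asks whether the Bmal1 difference depends on Apc genotype, or equally the Apc difference on Bmal1 genotype. Over all 88 libraries it was positive for 22 members and negative for 0 at a limma adjusted p under 0.05, against 18.1% and 29.6% of all 13846 genes. Its median was 0.34, against −0.05 over all genes. Mcm10 (0.78 ± 0.14, limma adjusted p = 2.64e-06) and Ccne1 (0.40 ± 0.07, limma adjusted p = 7.81e-06) had the lowest p, while Rfc3 was at −0.00 ± 0.08. It was positive for 28 members without the doubted libraries, against 20.3% of all genes, and for all 32 within the lower-numbered libraries, against 29.7% of all genes. Within the higher-numbered libraries it was positive for 2, Mcm10 and Ccne1, and negative for 3, Pola1, Tk1 and E2f1, against 9.04% and 24.8% of all genes.

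**Figure D4:**
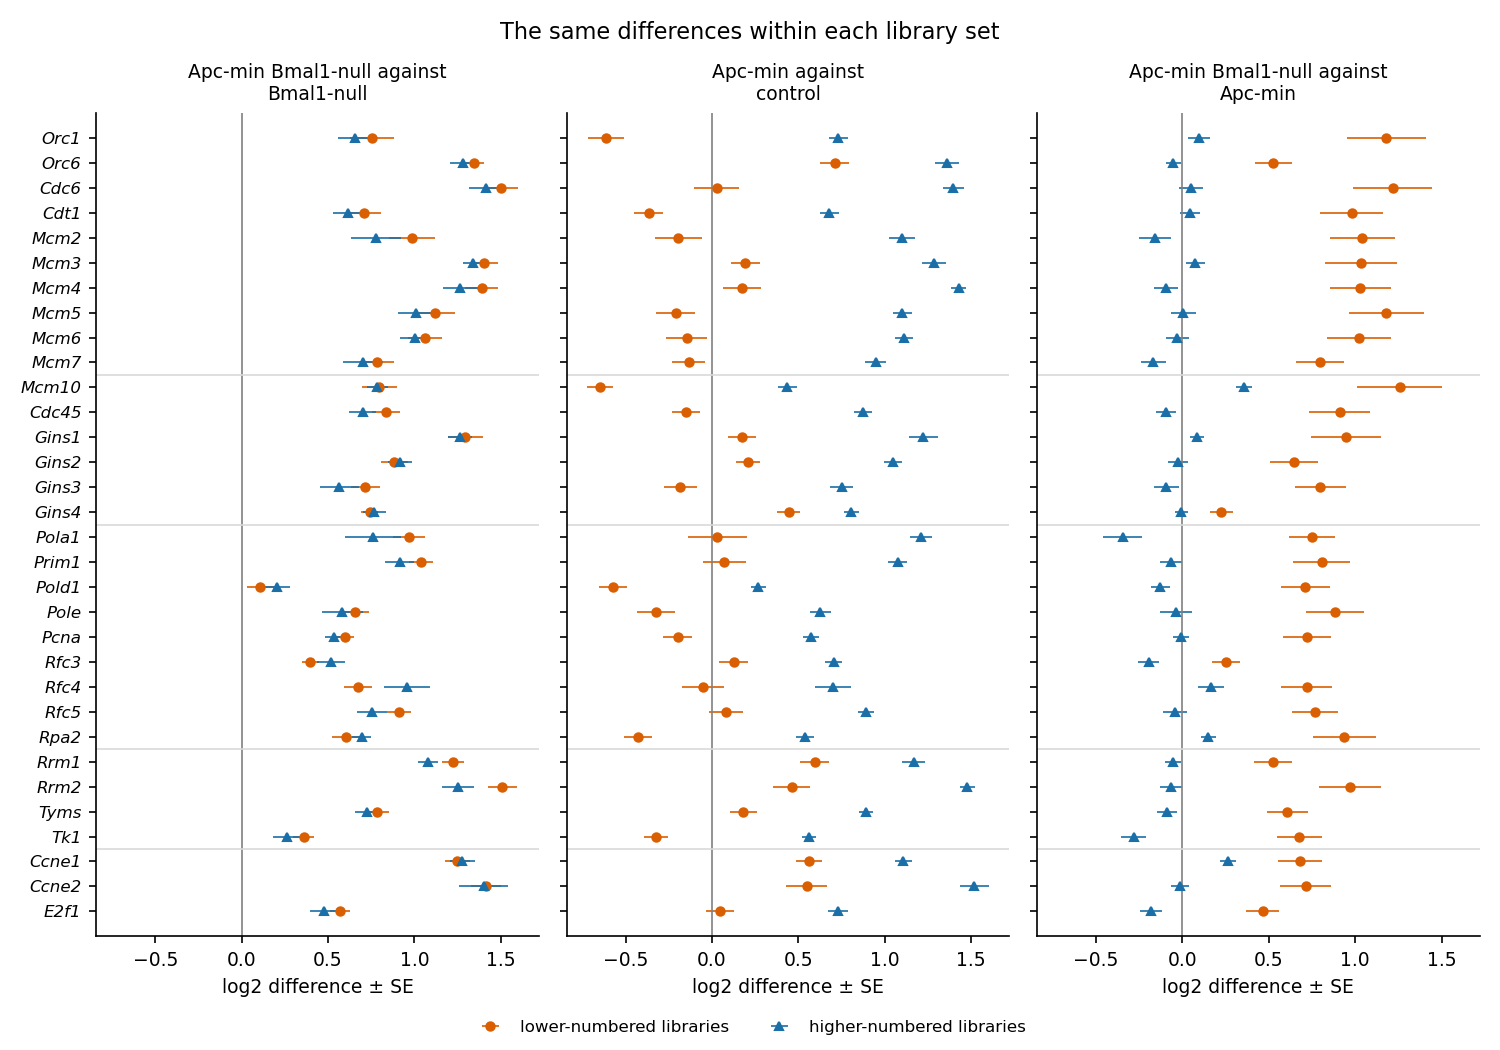
Log2 difference in level (horizontal axis) for each of the 32 members (vertical axis) within the lower-numbered libraries (orange circles) and the higher-numbered libraries (blue triangles), in 3 comparisons. The 2 sets lie close in Apc-min Bmal1-null against Bmal1-null (medians 0.86 and 0.77), and apart in Apc-min against control (medians 0.03 and 0.92) and in Apc-min Bmal1-null against Apc-min (medians 0.80 and −0.04).

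Across the 24 to 46 h course 17 of the 32 members fell in Apc-min organoids. A straight line through the log2 values was falling for 17 members and rising for 0 by limma (adjusted p under 0.05), where 9.01% of all 12625 genes fell and 22.2% rose. Another 12 were falling at an unadjusted p only, 29 in all, against 43.5% of all genes either way. The median slope was −0.0334 log2 units per hour. Ccne2 fell by 1.00 over the 22 h (slope −0.0456 ± 0.0098 per hour, limma adjusted p = 0.00242), Pcna by 0.76, Rrm1 by 0.72, Orc6 by 0.70 and Ccne1 by 0.59 on the log2 scale. In the lower-numbered Apc-min libraries the Mcm2 to Mcm7 sum was 310 TPM at 46 h, the last time point, and 560 TPM at 26 h, the first. In the higher-numbered ones it was 864 TPM at 46 h and 1078 TPM at 24 h. Within the lower-numbered libraries 22 members fell (median slope −0.045; against 3.38% of all genes) and within the higher-numbered ones 28 (median slope −0.016; against 10.5%). With library set as a block in the model 31 fell, against 14.1% of all genes. Without the doubted library 11 fell, against 7.04%, and within the lower-numbered libraries without it 24, against 4.4%. The count rested on single libraries. It was 5 without replicate 1 of 46 h, 6 without replicate 1 of 44 h, 7 without replicate 2 of 24 h and 28 without replicate 2 of 26 h. It was between 9 and 11 without any one of replicate 1 at 26, 40 or 42 h or replicate 2 at 28, 30 or 32 h. Over all genes the slopes called either way numbered 3943 with every library and 2778 to 4797 with 1 left out.

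The other genotypes changed little with time. In Apc-min Bmal1-null organoids 1 member rose, Tk1 by 0.0178 ± 0.0042 log2 units per hour (limma adjusted p = 0.00745), where 5.62% of all genes rose. In Bmal1-null organoids 1 member fell, Gins2 by 0.0153 ± 0.0032 per hour (limma adjusted p = 0.00457), where 3.28% of all genes fell. In control organoids 0 were called by limma and 2 had an unadjusted p under 0.05, against 2.2% and 16.1% of all genes. The slope was lower in Apc-min than in control organoids for 12 members by the test of the difference, against 5.09% of all genes, with Orc6 at −0.0371 and Rrm1 at −0.0364. That count was 6 without the Apc-min 44 h or 46 h replicate 1, where 2504 and 3142 of all genes were called either way. It was 21 without the Apc-min 26 h replicate 2, where 3451 were, against 2946 with every library. It was 10 without the doubted library, against 4.05% of all genes, and 29 with library set as a block, against 8.38%. The slope was higher in Apc-min Bmal1-null than in Bmal1-null organoids for 2, Tk1 (0.0240) and Pold1 (0.0221), against 4.83%, and the number called either way was 4 without the doubted library or replicate 2 of Bmal1-null at 40 h, and 1 without replicate 2 of Bmal1-null at 46 h. Between Apc-min Bmal1-null and Apc-min organoids 0 slopes differed by limma at an adjusted p under 0.05 and 31 at an unadjusted one, against 0.279% and 21.9% of all genes. With library set as a block 26 slopes were higher in Apc-min Bmal1-null organoids at an adjusted p under 0.05, against 5.36% of all genes. The number without the block was 19 adjusted without the Apc-min 26 h replicate 2, and 7, 2 and 1 without the Apc-min 44 h replicate 2, the Apc-min 42 h replicate 2 and the Apc-min Bmal1-null 32 h replicate 2. Over all genes these numbers were 676, 280, 177 and 212, in the same order, against 36 with every library. Between Bmal1-null and control organoids 0 differed, adjusted or not, against 0% of all genes adjusted and 2.54% unadjusted.

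**Figure D5:**
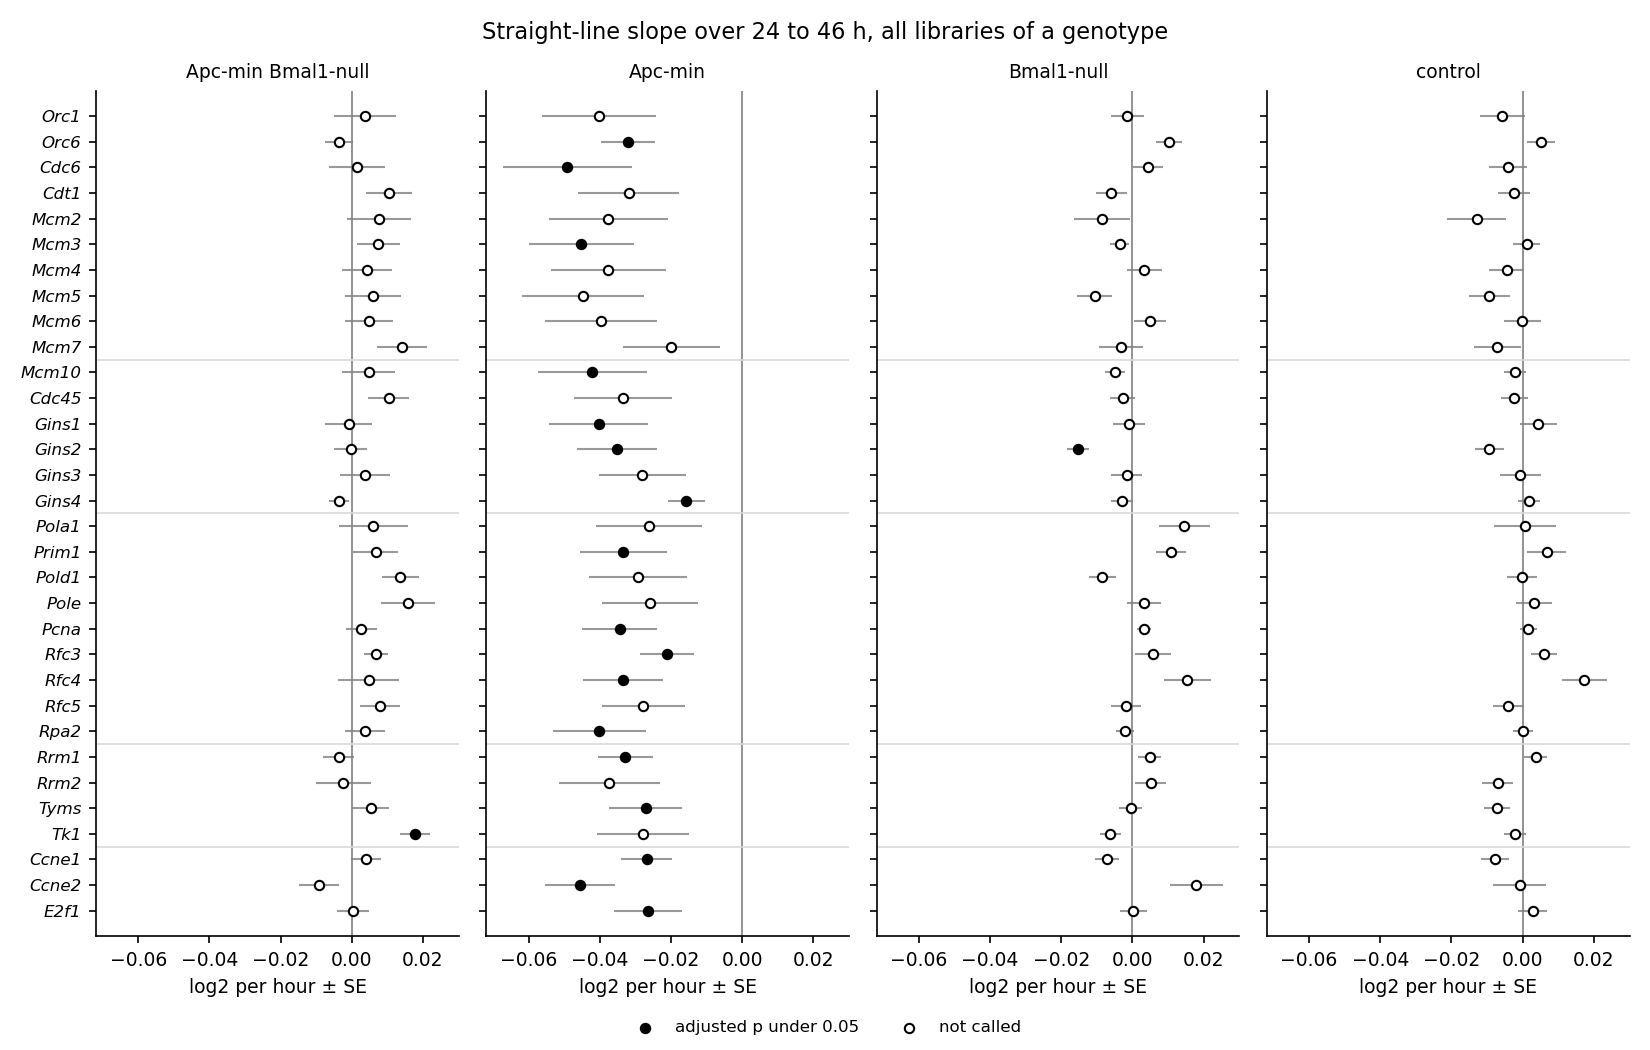
Slope of log2(TPM + 1) per hour (horizontal axis) with its standard error for each of the 32 members (vertical axis), in panels from left Apc-min Bmal1-null, Apc-min, Bmal1-null and control. In the Apc-min panel all points lie below 0, between −0.0491 for Cdc6 and −0.0157 for Gins4.

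A 24 h rhythm was tested with a cosine of that period. By limma at an adjusted p under 0.05 there were 0 rhythmic members in control organoids (3 unadjusted, Tyms, Ccne1 and Rfc4, against 0.0557% of all genes adjusted and 12.2% unadjusted). There were 0 in Bmal1-null organoids (2 unadjusted, Gins2 and Mcm10, against 0% and 6.88%) and 0 in Apc-min organoids (5 unadjusted, against 12% and 31%). With library set as a block 24 were rhythmic in Apc-min organoids, against 33.1% of all genes. In Apc-min Bmal1-null organoids Tk1 was called, with a swing of 1.27-fold and a peak at 40.9 h (limma adjusted p = 0.0391), where 2.59% of all genes were. That call was lost with a linear term in the model and when any one of 13 of the 22 libraries was left out. A course of 22 h holds less than 1 cycle, so a trend and a rhythm are hard to separate. Rhythms differed for 0 members between Apc-min Bmal1-null and Apc-min organoids (12 unadjusted, against 0% and 6.83% of all genes) and for 0 between Bmal1-null and control organoids (0 unadjusted, against 0.0395% and 1.87%).

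The rest of the replication and cell cycle genes were counted from 3 further lists, of 51 other replication genes, 25 G1/S regulators and 25 mitosis genes. In Apc-min Bmal1-null against Bmal1-null organoids 50 other replication genes rose and 1, Pold4, a small subunit of polymerase delta, fell by limma, with a median of 0.69. Pole2, the accessory subunit of polymerase epsilon, averaged 30.9 ± 3.6 TPM over Apc-min Bmal1-null libraries and 10.2 ± 1.53 TPM over Bmal1-null libraries (SD, n = 22 each), a log2 difference of 1.51 ± 0.06. Orc2, Tipin of the fork protection complex, and Dbf4, the activating subunit of the CDC7 kinase, rose by 1.40, 1.40 and 1.16. All 25 mitosis genes rose, with a median of 0.91, among them the spindle checkpoint kinase Bub1 by 1.39 and the anaphase activator Cdc20 by 1.44. Of all genes 45.7% were called higher and 38.8% lower in this comparison. In Apc-min against control organoids 36 other replication genes rose and 1 fell, and all 25 mitosis genes rose. Of all genes 50.5% were called higher and 31.1% lower. In the lower-numbered libraries alone 13 other replication genes were higher and 19 lower, with a median of −0.09, and 12 mitosis genes were higher. Of all genes 39.3% were higher and 28.3% lower there. Within the higher-numbered ones 50 were higher and 1 lower, and all 25 mitosis genes were higher, against 53.4% of all genes higher. In Apc-min Bmal1-null against Apc-min organoids 37 other replication genes and 12 mitosis genes rose and 0 of either list fell. Of all genes 24.6% were called higher and 35.7% lower. In the lower-numbered libraries alone 48 were higher and 1 lower, and all 25 mitosis genes were higher, against 34.5% of all genes higher. Within the higher-numbered ones 7 were higher and 6 lower, with a median of −0.03. There 0 mitosis genes were higher and 6 lower, with a median of −0.13. Of all genes 14.2% were higher and 35.3% lower in that set. The counts of the other lists in these 2 comparisons thus differed between the library sets, as did those of the members. A test of the difference between sets is not given for these lists. Between Bmal1-null and control organoids 1 replication gene rose, Rnaseh2b by 0.20 ± 0.04, and 0 mitosis genes were called, against 3.56% of all genes.

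The G1/S regulators were split. In Apc-min Bmal1-null against Bmal1-null organoids 16 of 25 rose and 7 fell, against the 45.7% and 38.8% of all genes above. Ccnd1, cyclin D1, averaged 513 ± 86.3 TPM in Apc-min Bmal1-null and 84.6 ± 12.5 TPM in Bmal1-null organoids, a log2 difference of 2.57 ± 0.08. The inhibitor gene Cdkn2a averaged 92.7 ± 22.1 TPM in Apc-min Bmal1-null and 2.07 ± 0.568 TPM in Bmal1-null organoids, while its neighbour Cdkn2b fell by 2.56 on the log2 scale and E2f2, another activating E2F, by 1.52. In Apc-min against control organoids 13 rose and 5 fell, against 50.5% and 31.1% of all genes, with Cdkn2a at 5.07, Ccnd1 at 2.69, Cdkn2b at −2.23 and E2f2 at −1.71. In Apc-min Bmal1-null against Apc-min organoids 12 rose and 6 fell, against 24.6% and 35.7% of all genes. Within the lower-numbered libraries 14 were higher and 5 lower, and within the higher-numbered ones 5 and 6. Of all genes 34.5% were called higher within the lower-numbered libraries. Within the higher-numbered ones 14.2% were called higher and 35.3% lower. Ccnd2, cyclin D2, averaged 392.6 TPM in Apc-min Bmal1-null and 208.7 TPM in Apc-min organoids, a log2 difference of 0.92 ± 0.08. It averaged 207 TPM in the higher-numbered and 211 TPM in all lower-numbered Apc-min libraries, the doubted one included. Cdkn1c, an inhibitor of cyclin E kinases, fell by 0.73. Between Bmal1-null and control organoids 3 rose, Cdkn1c by 0.27, E2f2 by 0.21 and Cdkn2b by 0.15, against 3.56% of all genes called either way. With the split of the Apc-min libraries, 48 of the other replication genes and all 25 mitosis genes were higher in the higher-numbered libraries. Of all genes 35.7% were. Cdkn2a averaged 62.8 TPM in the higher-numbered and 129.7 TPM in all lower-numbered libraries, the doubted one included. Ccnd1 averaged 584 TPM in the higher-numbered and 536 TPM in all lower-numbered ones.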

How the data were processed

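The members and the other gene lists were chosen with earlier results of these data known. Per the submitters' processing notes the reads were processed with STAR 2.5, RSEM 1.3.0 and GRCm38; the role of each is not given. Gene levels are the authors' deposited TPM values, and mapped read counts and their percent per library are those the authors deposited. From these, log2(TPM + 1) was fitted with limma 3.58.1 in R 4.3.3 with a variance trend, over all genes with a mean of at least 1 TPM in 1 or more of the genotypes fitted, with Benjamini-Hochberg adjustment over all of them; all 32 members passed. Level models had time as a factor of 12 levels. Folds are on the log2(TPM + 1) scale. Slopes were linear in hours, and rhythms were F tests of a 24 h cosine. TPM keeps no depth, and 28.8 M to 48.1 M uniquely mapped reads stood behind each library; 48 groups held 88 libraries, 40 with 2 and 8 with 1. No 2 libraries of a group held identical values (at least 95.4% of genes differed). The scripts were tested on simulated data. Named are the members with the lowest p per role group and the largest differences of each other list at 5 TPM or more; the library sets and the doubted libraries were chosen after their values were seen. Alternatives were other pseudocounts, filters and scalings, a gene length covariate, leaving out each library, and the library sets as strata or block.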

Additional observations from a re-analysis of the deposited data

Results flagged for a closer look

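The effect of one genotype differed by the other for 22 members in the Apc by Bmal1 interaction, all positive. Of all genes 18.1% were called positive and 29.6% negative. Mcm10 was at 0.78 and Ccne1 at 0.40 on the log2 scale. Within the higher-numbered libraries the interaction was positive for 2 members and negative for 3, against 9.04% and 24.8% of all genes. The difference of Apc-min Bmal1-null against Apc-min organoids differed between the library sets for 32 members, against 38.5% of all genes in this direction. Lower-numbered minus higher-numbered, Mcm4 was at 1.16 and Tk1 at 0.96. The difference of Apc-min against control organoids also differed for 32, against 38% of all genes, with Mcm4 at −1.20 and Tk1 at −0.84. The time slope differed for 12 members between Apc-min and control organoids, against 5.09% of all genes in this direction. Orc6 was at −0.0371 and Rrm1 at −0.0364 log2 units per hour. The slope differed for 2 between Apc-min Bmal1-null and Bmal1-null organoids, Tk1 at 0.0240 and Pold1 at 0.0221, against 4.83% of all genes higher. The causes were not tested.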

How the results depend on the processing

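All 32 members stayed higher in Apc-min Bmal1-null than in Bmal1-null organoids without any one library and with set means as units, and 31 on a median-of-ratios scale. In Apc-min Bmal1-null against Apc-min organoids 7 members were called either way within the higher-numbered libraries and 0 with set means as units. In Apc-min against control organoids 14 were called either way within the lower-numbered libraries and 6 with set means. The interaction gave 5 within the higher-numbered libraries. In Bmal1-null against control organoids a gene length covariate gave 1. The falling slopes in Apc-min organoids numbered 7 with no filter, 29 on a median-of-ratios scale, 32 with the length covariate, 31 with library set as a block, 11 without the doubted libraries and 28 within the higher-numbered libraries. Slopes in Bmal1-null organoids numbered 2 on the median-of-ratios scale, 8 with the length covariate, 2 on the authors' quantile-normalized tables and 0 within either set. In Apc-min Bmal1-null organoids they numbered 5 with the length covariate, 2 without the doubted library, 0 within either set and 5 within the lower-numbered libraries without it. Rhythms in Apc-min organoids numbered 4 on the median-of-ratios scale, 27 with the length covariate, 24 with the set block and 2 on the quantile tables. In Apc-min Bmal1-null organoids they numbered 0 with no filter, 0 on the median-of-ratios scale, 0 with a linear term and 2 with the length covariate. Slope differences between Apc-min Bmal1-null and Apc-min organoids numbered 29 with the length covariate, 26 with the set block, 29 within the lower-numbered libraries and 27 there without the doubted ones. Those between Apc-min and control organoids numbered 6 with no filter, 28 on the median-of-ratios scale, 31 with the length covariate and 29 with the set block. Those between Apc-min Bmal1-null and Bmal1-null organoids numbered 6 with the length covariate, 4 without the doubted library, 0 within either set and 1 within the lower-numbered libraries without it. The set block gave 1 rhythm difference between Apc-min Bmal1-null and Apc-min organoids. The set difference in control organoids gave 3 on the median-of-ratios scale and 3 with the length covariate. Calls over all genes moved with these settings too. Rhythms in Apc-min organoids were called for 12% of all genes in the main fit and 33.1% with the set block. Falling slopes there were called for 9.01% and 14.1% of all genes. These counts alone are thus no result about the members. The cause of these moves was not tested.

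Signs turned within library sets, where the median over all genes was shifted too. In Apc-min Bmal1-null against Apc-min organoids, within the higher-numbered libraries, it was −0.12, against −0.04 over the members. In Apc-min against control organoids, within the lower-numbered libraries, it was 0.09, against 0.03. For the interaction within the higher-numbered libraries it was −0.17, against −0.10. Many of the turned values are small, and a turned sign alone is no call. In Apc-min Bmal1-null against Apc-min organoids, within the higher-numbered libraries, log2 differences were −0.054 for Orc6 and Rrm1, −0.16 for Mcm2, −0.094 for Mcm4, −0.029 for Mcm6, −0.097 for Cdc45, −0.023 for Gins2, −0.093 for Gins3, −0.35 for Pola1, −0.064 for Prim1, −0.039 for Pole, −0.0085 for Pcna, −0.20 for Rfc3, −0.043 for Rfc5, −0.066 for Rrm2, −0.090 for Tyms, −0.28 for Tk1, −0.016 for Ccne2 and −0.18 for E2f1. In Apc-min against control organoids, within the lower-numbered libraries, they were −0.61 for Orc1, −0.37 for Cdt1, −0.19 for Mcm2, −0.21 for Mcm5, −0.14 for Mcm6 and Mcm7, −0.65 for Mcm10, −0.15 for Cdc45, −0.18 for Gins3, −0.32 for Pole and Tk1, −0.20 for Pcna, −0.052 for Rfc4 and −0.43 for Rpa2. Pold1 was at 0.27 there within the higher-numbered libraries. The interaction within the higher-numbered libraries was −0.064 for Orc1, −0.096 for Orc6, −0.020 for Cdt1, −0.13 for Mcm4, −0.061 for Mcm5, −0.093 for Mcm6, −0.16 for Cdc45, −0.17 for Gins3, −0.42 for Pola1, −0.18 for Prim1, −0.033 for Pole, −0.044 for Pcna, −0.11 for Rfc5 and Rrm1, −0.22 for Rrm2 and E2f1, −0.27 for Tk1 and −0.14 for Ccne2. For Rfc3 it was 0.25 within the lower-numbered libraries and 0.30 there without the doubted ones.

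Leaving out each library in turn gave 23 to 28 called members for Apc-min Bmal1-null against Apc-min, 25 to 28 for Apc-min against control, 32 to 32 for Apc-min Bmal1-null against Bmal1-null, 0 to 0 for Bmal1-null against control and 18 to 27 for the interaction. Over all genes the calls ranged over 7357 to 8445, 11024 to 11216, 11222 to 11575, 405 to 466 and 6223 to 7218, in the same order. Slopes ranged over 1 to 2 in Apc-min Bmal1-null, 5 to 28 in Apc-min, 1 to 2 in Bmal1-null and 0 to 1 in control organoids. Over all genes the slopes called ranged over 756 to 2125, 2778 to 4797, 487 to 1049 and 159 to 870, in the same order. Rhythms ranged over 0 to 1 in both Apc-min genotypes and stayed at 0 in the others. Over all genes the rhythms called ranged over 151 to 1444 in Apc-min Bmal1-null, 401 to 2643 in Apc-min, 0 to 10 in Bmal1-null and 4 to 50 in control organoids. Slope differences ranged over 0 to 19 for Apc-min Bmal1-null against Apc-min, 6 to 21 for Apc-min against control and 1 to 4 for Apc-min Bmal1-null against Bmal1-null. Over all genes the slope differences called ranged over 8 to 676, 1735 to 4181 and 744 to 1677, in the same order. The set difference in control organoids ranged over 1 to 15, against 1060 to 7495 calls over all genes, and 15 came without either 38 h library. The set difference in Apc-min organoids stayed at 32, against 6708 to 8482 calls over all genes. No paired analysis was possible because the replicate numbers follow accession order only; the library sets were fitted as a block instead. TPM shows shares of RNA, so a change in total RNA per cell is not seen.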
